A study of Mus musculus with 3 samples.

Results

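The habenula is a small paired nucleus on the dorsal side of the thalamus, next to the third ventricle. Its spots on 3 spatially barcoded mouse brain sections are described here. Spots were chosen by a score, the sum over Tac2, Pou4f1, Nwd2, Gpr151, Chrnb4 and Chrna3 of the natural log of 1 plus the gene's counts per 10000 unique molecular identifiers (UMIs, one per captured RNA molecule). Among spots with at least 3000 UMIs, the 20 with the highest score were taken in each section, 60 of 10239 spots in all. The score is itself made of measured values, so the levels of these 6 genes describe the choice and carry no test.

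The sections came from fresh frozen brains of C57BL/6J mice, cut at 10 µm and placed on Visium arrays, whose barcoded spots each capture RNA from a small area of tissue that can hold several cells. Each label was carried by 1 section, namely O-Ex with the treatment exercise, O-Ctrl with the treatment control, and Y-Ctrl with the treatment control. The labels used here give no age, sex, exercise regimen or animal number. Each group was 1 section and spots are not replicates, so section, animal and condition cannot be told apart and no p-value is given. All values are UMI counts summed over spots and scaled per 1000000 UMIs of the same spots (CPM), and intervals are exact 95% Poisson limits that cover counting error only.

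The medial habenula is a dense cluster of glutamatergic neurons, many of which also release acetylcholine or a tachykinin peptide, and its axons run in the fasciculus retroflexus to the interpeduncular nucleus. It is known for high levels of nicotinic acetylcholine receptors that contain the subunits encoded by Chrna3 and Chrnb4, and for a role in nicotine aversion and withdrawal. The lateral habenula, its neighbour, projects to midbrain monoamine centres and has a different set of genes.

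The label held in 1 of the 3 sections. In Y-Ctrl all 20 chosen spots held at least 3 of the 6 genes, and 11 held all 6. In O-Ex 0 of the 20 chosen spots and in O-Ctrl 1 of the 20 held 3 of the genes, and Pou4f1 and Gpr151 had 0 counts in the chosen spots of both sections. Over all spots with at least 3000 UMIs, 0 of 3332 in O-Ex, 2 of 3498 in O-Ctrl and 50 of 3409 in Y-Ctrl held 3 or more of the genes. The score at the limit of the choice, the 20th spot, was 1.70 in O-Ex, 2.04 in O-Ctrl and 6.70 in Y-Ctrl, while the first spot left out scored 1.69, 2.03 and 6.42 in the same order of sections. The name habenula is therefore used below for the Y-Ctrl spots alone, and the spots of the other sections are called the chosen spots of O-Ex and of O-Ctrl. Tac2 had 0 counts in 1 of the 20 chosen spots of each of these sections, and at most 2 counts in 9 of 20 in O-Ex and 5 of 20 in O-Ctrl.

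**Figure D1:**
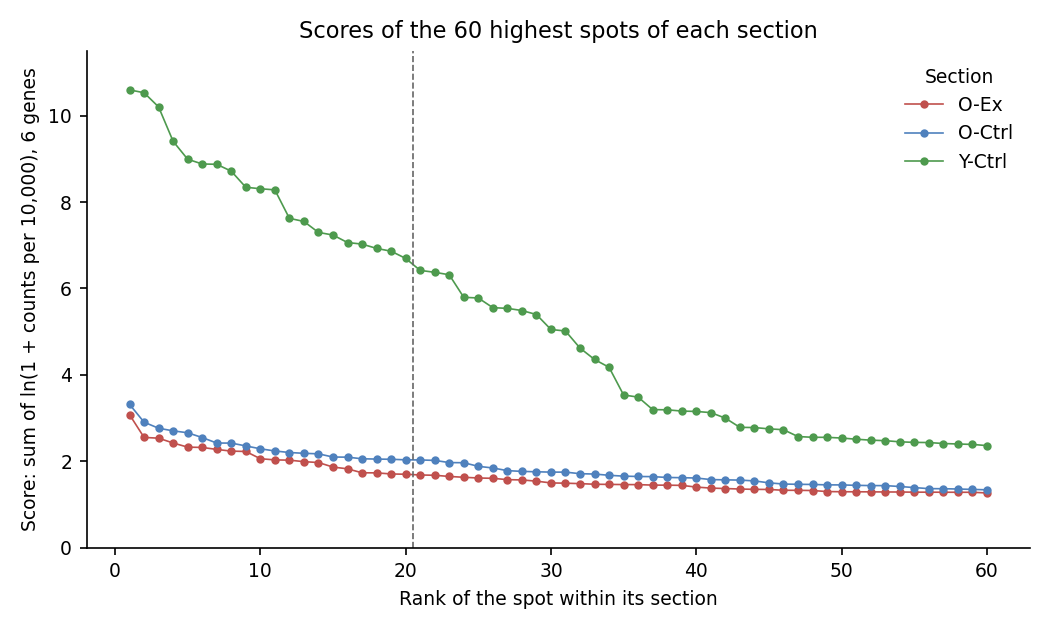
Score (sum of the natural log of 1 plus counts per 10,000 UMIs over 6 genes) of the 60 highest spots of each section against their rank, with 1 point per spot and a dashed line after rank 20. The Y-Ctrl curve starts at 10.6 and is still at 2.37 at rank 60, while the O-Ex and O-Ctrl curves start at 3.08 and 3.32.

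The chosen spots summed 290779 UMIs in O-Ex, 413094 in O-Ctrl and 477839 in Y-Ctrl. Their median depth was 11037 UMIs in O-Ex, against 13697.5 in its other spots, 22539.5 in O-Ctrl against 14891.5, and 20101 in Y-Ctrl against 15712. A count of 0, with 3 counts as its upper limit, allows up to 10.3 CPM in the O-Ex spots, 7.26 CPM in the O-Ctrl spots and 6.28 CPM in the Y-Ctrl spots. The section totals were 53196124 UMIs in O-Ex, 58234443 in O-Ctrl and 62348064 in Y-Ctrl and the barcode list, which is the layout of the array, was the same in all sections. The chosen barcodes of O-Ex and O-Ctrl shared 1 position, and Y-Ctrl shared 0 with either.

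Chrna3 and Chrnb4 lie side by side with Chrna5 on mouse chromosome 9 (GRCm38 chr9:54980880-55048779, from the start of Chrna5 to the end of Chrnb4), Chrna5 on the plus strand and the other pair on the minus strand. The cluster is shown because its members differed in the same spots. Chrna3 and Chrnb4 had 150 and 78 counts in the Y-Ctrl habenula spots, and Chrna5 had 0. Chrna3 and Chrnb4 were in the score and Chrna5 was not, so the choice of spots favoured this difference. In Y-Ctrl spots chosen without the gene itself, Chrna3 had 145 counts and Chrnb4 had 73. Their promoters, 250 bases before to 50 bases after each annotated start, are given 5′ to 3′ on the gene's strand from RefSeq (GRCm38.p6); capitals mark GC boxes, the letters GGGCGG or their reverse complement.
Chrna3, chr9:55026513-55026812, minus strand: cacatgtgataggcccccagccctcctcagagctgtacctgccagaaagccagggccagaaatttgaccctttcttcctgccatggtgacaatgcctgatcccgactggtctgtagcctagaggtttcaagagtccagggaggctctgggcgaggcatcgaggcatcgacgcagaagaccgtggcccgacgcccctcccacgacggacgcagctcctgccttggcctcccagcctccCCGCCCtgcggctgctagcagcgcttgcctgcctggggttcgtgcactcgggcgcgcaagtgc
Chrnb4, chr9:55048495-55048794, minus strand: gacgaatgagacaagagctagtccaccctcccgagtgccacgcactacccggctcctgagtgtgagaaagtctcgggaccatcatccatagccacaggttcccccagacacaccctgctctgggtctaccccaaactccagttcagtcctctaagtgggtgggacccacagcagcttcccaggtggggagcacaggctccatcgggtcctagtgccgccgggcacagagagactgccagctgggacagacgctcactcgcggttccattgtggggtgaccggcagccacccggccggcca
Chrna5, first start site, chr9:54980630-54980929, plus strand: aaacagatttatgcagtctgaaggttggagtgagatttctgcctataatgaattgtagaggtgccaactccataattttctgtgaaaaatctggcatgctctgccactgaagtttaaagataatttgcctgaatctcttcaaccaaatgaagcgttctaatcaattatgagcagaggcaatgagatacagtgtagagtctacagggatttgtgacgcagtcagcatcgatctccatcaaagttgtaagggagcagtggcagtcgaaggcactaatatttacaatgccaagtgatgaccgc
Chrna5, second start site, chr9:54981238-54981537, plus strand: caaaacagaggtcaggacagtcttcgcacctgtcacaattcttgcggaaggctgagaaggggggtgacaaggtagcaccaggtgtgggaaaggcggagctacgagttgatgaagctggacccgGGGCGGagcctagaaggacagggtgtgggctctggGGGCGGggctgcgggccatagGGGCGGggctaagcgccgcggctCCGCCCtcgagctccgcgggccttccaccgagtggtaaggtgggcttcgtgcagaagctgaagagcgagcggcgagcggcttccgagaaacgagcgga
The Chrna3 promoter held 1 GC box, the Chrnb4 promoter 0, and the Chrna5 promoters 0 at the first start site and 4 at the second. A GC box occurs in 35.7% of the 32851 promoters of the same length. The E box CANNTG, bound by basic helix-loop-helix factors such as those encoded by Nhlh2 and Neurod1, was found 3 times in the Chrna3 promoter and 2 times in each of the others, and occurs in 72.3% of promoters. The letters ATAATTAAT, a core sequence for the POU factor encoded by Pou4f1, were in none of these 4 windows and are in 0.274% of promoters. Both strands were searched, and a match is a description of letters, not of binding.

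In the Y-Ctrl habenula spots the 6 choosing genes stood far above the other spots of the section. Tac2, the gene for neurokinin B, was at 1777 CPM (95% limits 1659 to 1900), against 18.7 CPM in the other spots. It had a lowest count of 5, a median of 19 and a highest of 160 per spot, so every spot contained it. Nwd2, a gene of the NACHT and WD repeat family, was at 781 CPM against 17.8 CPM, with 3, 13 and 54 counts as its lowest, median and highest per spot. Chrna3, a nicotinic receptor alpha subunit, was at 314 CPM against 1.48 CPM and was found in 17 of 20 spots. Chrnb4, the beta subunit it pairs with, was at 163 CPM against 0.560 CPM, in 18 of 20 spots. Pou4f1, the POU factor also called Brn3a, was at 157 CPM against 0.692 CPM, and Gpr151, an orphan receptor of habenula axons, at 126 CPM against 0.889 CPM, each in 16 of 20 spots. Fewer cells of a type and less RNA per cell cannot be told apart in a spot.

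The 20 spots were a large part of all the section's signal for these genes. They held 69.6% of the Y-Ctrl counts of Chrnb4 (60.2% to 78.0%, exact binomial 95% limits), 64.1% of Pou4f1, 62.5% of Chrna3, 52.6% of Gpr151, 42.8% of Tac2 and 25.7% of Nwd2. The 50 spots with at least 3 of the genes, which carried 1.66% of the UMIs, held 86.3% of the Pou4f1 counts and 81.3% of the Chrnb4 counts. In the other spots of Y-Ctrl, Tac2 had a UMI in 11.6% and Nwd2 in 643 of 3389, against 0.944% for Pou4f1 and 0.885% for Chrnb4. Of 100 thalamus spots of the section, taken by the highest score over Prkcd, Ramp3, Tnnt1, Plekhg1, Synpo2 and Rora and outside the chosen spots, 2% had a Tac2 UMI and 6% a Nwd2 UMI, at a median depth of 16038 UMIs. With every spot thinned to 3000 UMIs, Tac2 was found in 19 of the 20 habenula spots and in 4.25% of the others, and Pou4f1 in 8 of 20 and in 0.266% of the others.

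Each gene was then left out of the score, so that its level was read in spots chosen without it. In Y-Ctrl the spots hardly changed: 17 of 20 were kept without Tac2, and 18 or 19 without any other gene. Tac2 was then at 1494 CPM, 66.9-fold over the other spots, and Nwd2 at 774 CPM, 43.4-fold over them. Chrnb4 was 238-fold, Chrna3 188-fold, Pou4f1 188-fold and Gpr151 124-fold over the other spots in the sets chosen without them. Without Tac2 in the score, 3 of 20 spots were kept in O-Ex and 2 of 20 in O-Ctrl. Tac2 in the new O-Ex set was at 25.7 CPM against 9.55 CPM in the others, on 3 counts. In the new O-Ctrl set it was at 4.34 CPM against 13.9 CPM, on 1 count. Chosen without Nwd2, the spots had Nwd2 at 21.6 CPM in O-Ex against 15.9 CPM in the others, and at 22.1 CPM in O-Ctrl against 16.9 CPM.

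**Figure D2:**
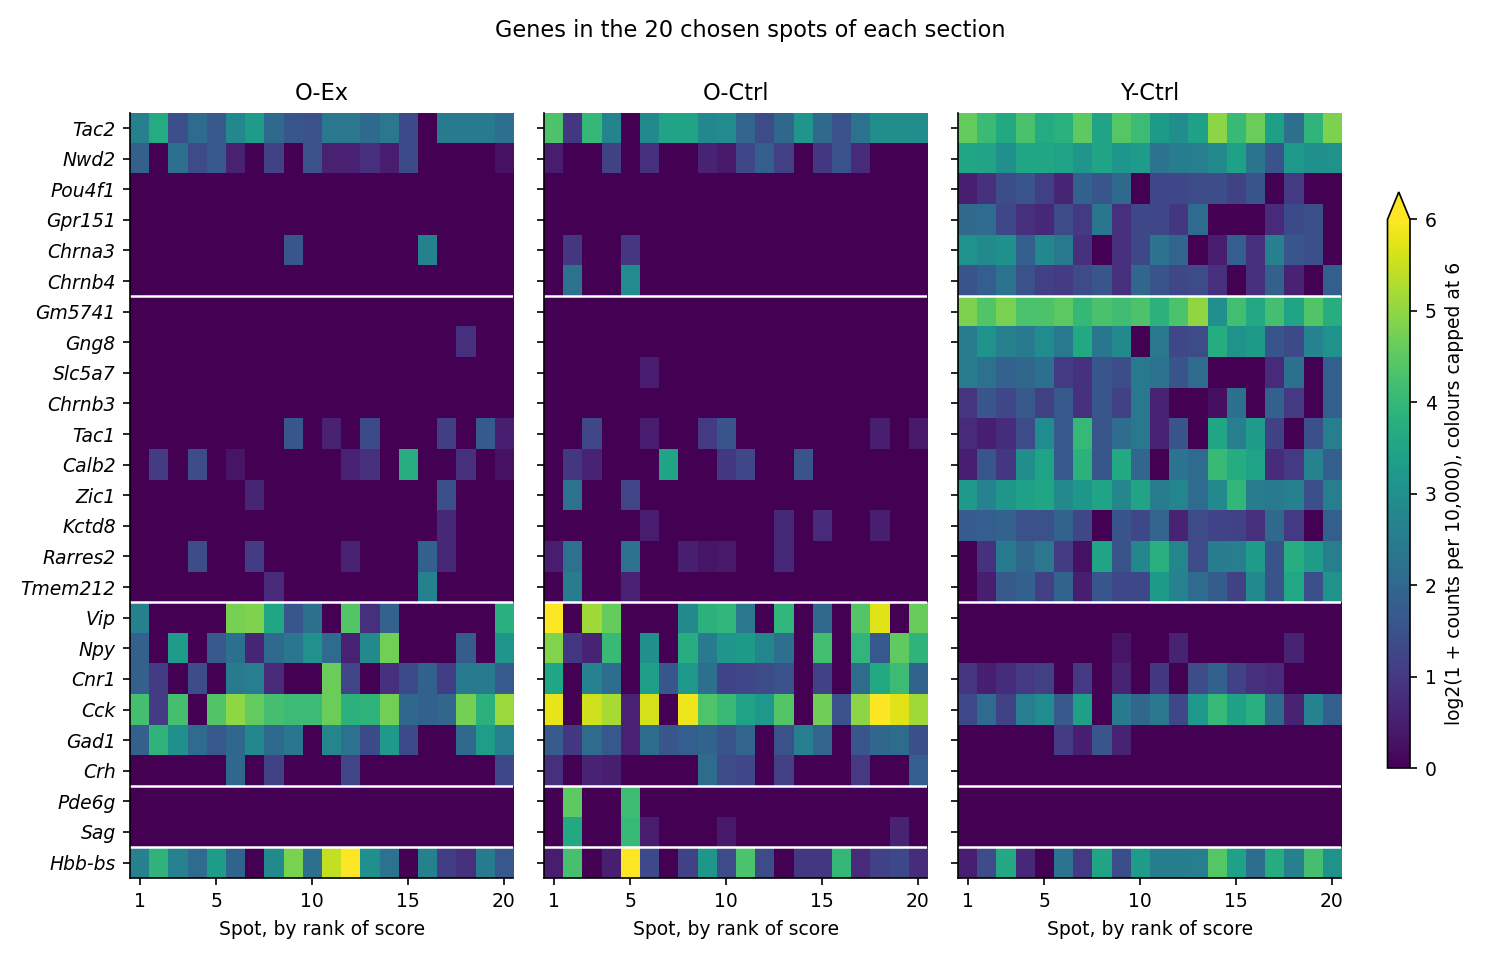
Level of 25 genes (rows, log2 of 1 plus counts per 10,000 UMIs, colours capped at 6) in the 20 chosen spots of O-Ex, O-Ctrl and Y-Ctrl (columns by rank of score). White lines part the 6 choosing genes, medial habenula and ventricle wall genes, a block from Vip to Crh, photoreceptor genes, and Hbb-bs. The upper 2 blocks are filled in Y-Ctrl. Vip is at 0 in 10 of 20 spots of O-Ex, 8 of 20 of O-Ctrl and 20 of 20 of Y-Ctrl.

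Beyond the choosing genes, 176 of 1752 genes with at least 100 CPM in the habenula spots were 2-fold or more higher there than in the other Y-Ctrl spots (10.0%), and 168 of 1533 genes with at least 100 CPM in the other spots were 2-fold or more lower (11.0%). Ratios were taken on CPM plus 20. Without a minimum level, 431 of 20247 genes were past 2-fold higher (2.13%) and 377 past 2-fold lower (1.86%). Counts over gene lists for these spots, given below, also took no minimum level, so these shares stand beside each of them. On CPM plus 20, a gene under 20 CPM on the higher side cannot pass 2-fold. The shares without a minimum level include such genes, so a list of more abundant genes can exceed them for that reason alone. The median log2 ratio of the 1752 genes was 0.28, so that single ratios stand against a shift of that size. Because the spots were chosen on counts of the same cells, these differences describe the tissue under the spots.

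The gene with the largest ratio was Gm5741, annotated as a short protein-coding gene on the minus strand of GRCm38 chr8:85067568-85067982. It was at 1770 CPM (1653 to 1894) in the habenula spots and at 6.03 CPM in the other spots, a log2 ratio of 6.10. All 20 spots contained it, with 5, 30.5 and 128 counts as the lowest, median and highest, and it was as abundant as Tac2. The whole sections held 4 counts of it in O-Ex, 5 in O-Ctrl and 1251 in Y-Ctrl. In Y-Ctrl 89.9% of its counts in spots with at least 3000 UMIs lay in the 50 spots with at least 3 choosing genes. Summed over barcodes under 3000 UMIs, it was at 0.750 CPM in O-Ex, at 0 of 1230655 UMIs in O-Ctrl and at 33.6 CPM in Y-Ctrl.

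Signalling genes known from the medial habenula came next. Gng8, a G protein gamma subunit, was at 636 CPM against 8.27 CPM in the other spots. Lrrc55, an auxiliary subunit of BK potassium channels, was at 439 CPM against 7.53 CPM. Necab2 and Necab3, neuronal calcium-binding proteins, were at 1348 CPM against 64.2 CPM and at 647 CPM against 47.4 CPM. Sncg, gamma-synuclein, was at 515 CPM against 15.1 CPM, and Syt9 and Syt6, members of the synaptotagmin family, were at 393 CPM against 16.8 CPM and 266 CPM against 6.65 CPM. Each of these was found in 17 or more of the 20 spots, and no single spot held more than 24.3% of the counts of any of them.

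Genes of receptors, channels and axon guidance were also among the 30 highest. Gfra1, a GDNF family receptor, was at 402 CPM against 18.96 CPM and Kcnip1, which encodes a subunit of A-type potassium channels, at 421 CPM against 21.0 CPM. Cacnb3, a calcium channel beta subunit, was at 841 CPM against 108 CPM, and Kcng4, a silent potassium channel subunit, at 140 CPM against 4.33 CPM. Robo3, a receptor of commissural axon guidance, was at 163 CPM against 5.07 CPM. Nppa, the gene for atrial natriuretic peptide, was at 140 CPM against 0.494 CPM and was in 13 of 20 spots, with up to 15 counts in a spot.

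**Figure D3:**
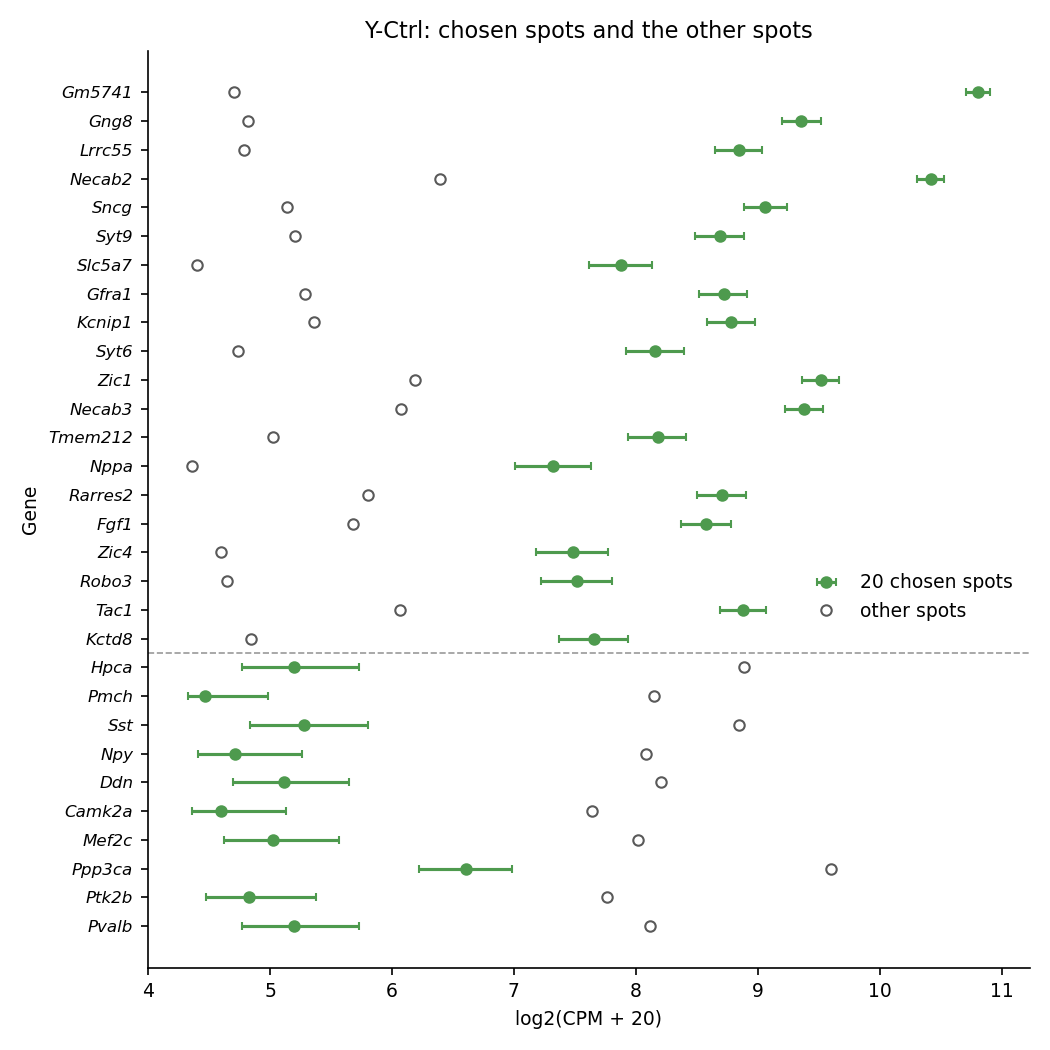
Level of 30 genes in Y-Ctrl (log2 of CPM plus 20), with filled points for the 20 habenula spots, bars for their 95% Poisson limits and open points for the other spots. The 20 genes above the dashed line had the highest ratios and the 10 below it the lowest, among genes with at least 100 CPM on the higher side. Gm5741 at 1770 CPM against 6.03 CPM is the widest gap.

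The genes of cholinergic transmission were not equally readable. Slc5a7, the choline transporter that loads cholinergic terminals, was at 216 CPM against 1.17 CPM, in 16 of 20 spots. Slc18a3, the vesicular acetylcholine transporter, was at 56.5 CPM against 0.412 CPM, in 10 of 20 spots. Chat, which encodes the enzyme that makes acetylcholine, had 0 counts in the habenula spots and 2 counts in the whole Y-Ctrl section. Slc18a3 lies within the Chat gene on the same strand, and Chat was near 0 everywhere, so its count does not read cholinergic identity here. Ache, the enzyme that breaks acetylcholine down, was at 71.2 CPM against 35.3 CPM, and Slc10a4, a vesicular transporter of cholinergic and monoamine neurons, had 0 counts. Of the 5 genes 2 were past 2-fold higher and 0 past 2-fold lower, with a median log2 ratio of 0.72.

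Of 7 nicotinic subunits outside the score, Chrnb3 alone was past 2-fold higher. It was at 119 CPM against 1.14 CPM, in 16 of 20 spots, while Chrna6, its neighbour on chromosome 8 (chr8:27403212-27413944), had 1 count. Chrna4 and Chrnb2, which form the most widespread brain receptor, were at 10.5 CPM against 23.0 CPM and at 35.6 CPM against 16.9 CPM, on 5 and 17 counts. Chrna2 and Chrna5 had 0 counts, and Chrna7 had 1 count. Chrna5 had 88 counts in the whole section.

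Of 17 genes listed for the medial habenula beside the choosing genes, 11 were past 2-fold higher and 0 past 2-fold lower, with a median log2 ratio of 2.52. The list was drawn up with earlier results of these sections known. Beside those above, Zic1, a zinc finger factor, was at 714 CPM against 53.1 CPM, Calb2, the calcium buffer calretinin, at 666 CPM against 81.3 CPM, and Tac1, the substance P precursor, at 452 CPM against 46.9 CPM. Kctd8, an auxiliary subunit of GABA-B receptors, was at 182 CPM against 8.71 CPM, and Nhlh2, a helix-loop-helix factor, at 119 CPM against 4.22 CPM. Wif1, a Wnt inhibitor, was at 35.6 CPM against 1.24 CPM, but 88.2% of its 17 counts came from 1 spot. Etv1, Gpr139, Slc17a6, Slc17a7 and Oprm1 were within 2-fold, the last on 1 count.

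Of 6 genes listed for the lateral habenula, 0 were past 2-fold higher and 3 were past 2-fold lower, with a median log2 ratio of -0.995. Gap43, a growth cone protein, was at 41.9 CPM against 271 CPM, Vgf, a secreted neuropeptide precursor, at 18.8 CPM against 106 CPM, and Pcdh10, a protocadherin, at 31.4 CPM against 93.0 CPM. Htr2c was at 16.7 CPM against 46.4 CPM, Chrm3 at 10.5 CPM against 16.2 CPM and Parm1 at 18.8 CPM against 33.3 CPM. The medial and the lateral list differed in direction in these spots, but both were drawn up with earlier results known. In the chosen spots of O-Ex, which did not carry the habenula genes, 5 of the 6 lateral genes had log2 ratios above 0. In those of O-Ctrl it was 3 of 6, so the list does not read lateral habenula alone.

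Among 12 transcription factors of habenula and thalamus, 7 were past 2-fold higher and 0 past 2-fold lower, with a median log2 ratio of 1.36. Zic4 was at 159 CPM against 4.18 CPM and Zic5 at 87.9 CPM against 3.08 CPM, while Zic2 had 2 counts. Zic1 and Zic4 overlap on opposite strands over 3398 bases, and whether counting used strand is not given in the sources used here. Neurod1 was at 103 CPM against 13.0 CPM. Tcf7l2, the Wnt pathway factor of thalamus and medial habenula, was at 318 CPM against 115 CPM, with 615 CPM in the 100 thalamus spots. Lef1, at 16.7 CPM on 8 counts, was below the 152 CPM of the thalamus spots. Nhlh1 and Isl1 had 0 counts. Irx2, an Iroquois factor outside the list, was at 113 CPM against 1.99 CPM.

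Tachykinins and opioids split. Beside Tac1 and Tac2, the substance P receptor gene Tacr1 was at 41.9 CPM against 1.07 CPM on 20 counts in 7 spots, whereas Tacr3, the receptor of neurokinin B, had 0 counts. Penk, the enkephalin precursor, was at 10.5 CPM against 103 CPM, and Pdyn and Pnoc had 1 and 2 counts. Of the opioid receptors, Oprl1 was at 67.0 CPM against 32.3 CPM, Oprm1 had 1 count, and Oprk1 and Oprd1 had 0. Of the 10 genes listed 2 were past 2-fold higher and 1 past 2-fold lower.

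GABA-B receptor genes were high. Gabbr1 was at 933 CPM (849 to 1024) against 327 CPM, in all 20 spots, and Gabbr2 at 439 CPM against 164 CPM. Both were also present in the thalamus spots, at 574 CPM and 517 CPM. Of the subunits that tune the receptor, Kctd8 alone was past 2-fold higher, Kctd12 was at 44.0 CPM against 54.2 CPM, Kctd12b had 6 counts and Kctd16 had 0. Cacna1e, the R-type calcium channel subunit, was at 172 CPM against 36.4 CPM, with 2.33 CPM in the thalamus spots. The pacemaker channel gene Hcn2 was lower, at 20.9 CPM against 79.4 CPM. Hcn3 and Hcn4 were at 14.7 and 23.0 CPM against 6.14 and 6.92 CPM. Of 11 genes 4 were past 2-fold higher and 2 past 2-fold lower.

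Both main vesicular glutamate transporters were read in the spots. Slc17a6 was at 245 CPM against 121 CPM and Slc17a7 at 387 CPM against 408 CPM, while Slc17a8 had 1 count. Markers of GABAergic neurons were low: Gad1 was at 14.6 CPM against 187 CPM, and 4 of 6 genes of GABAergic neurons were past 2-fold lower.

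Hpca, the calcium sensor hippocalcin, had the lowest ratio in the habenula spots. It was at 16.7 CPM against 455 CPM, and Camk2a, the alpha subunit of CaM kinase II, at 4.19 CPM against 180 CPM. Ddn, a postsynaptic protein, was at 14.7 CPM against 275 CPM, Mef2c, a neuronal transcription factor, at 12.6 CPM against 239 CPM, and Ppp3ca, the catalytic subunit of calcineurin, at 77.4 CPM against 755 CPM. Vsnl1, visinin-like protein 1, was at 113 CPM against 893 CPM. The peptide genes Sst, Npy and Pmch were at 18.8, 6.28 and 2.09 CPM against 439, 251 and 264 CPM. Of 15 immediate early genes 7 were past 2-fold lower and 0 past 2-fold higher, against 1.86% and 2.13% of all genes with a count. Among genes with at least 100 CPM on the higher side, these shares were 11.0% and 10.0%. Among the lower were Egr1 at 10.5 CPM against 131 CPM and Homer1 at 8.37 CPM against 84.3 CPM. Among 13 synaptic vesicle and release genes, 3 were past 2-fold lower, such as Syn2 at 52.3 CPM against 315 CPM.

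Mitochondrially encoded RNA took 11.0% of the UMIs in the habenula spots, against 19.8% in the other spots and 19.2% in the thalamus spots of Y-Ctrl. All 13 mitochondrially encoded genes listed were lower, 3 of them past 2-fold, with a median log2 ratio of -0.93. The share was 18.0% in the chosen spots and 17.8% in the other spots of O-Ex, and 18.7% and 19.7% in those of O-Ctrl. The labels name nuclear RNA as the molecule of all 3 libraries. The part of this lower share in the gene ratios was not tested. Scaling without these genes and the 6 choosing genes left 181 genes past 2-fold higher in the habenula spots and 254 past 2-fold lower.

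Genes of the ventricle wall were high in the same spots. All 8 ependymal genes listed were past 2-fold higher, with a summed level of 1473 CPM against 111 CPM in the other spots, and 17 of 20 spots lay above the 95th percentile of the other spots for that sum. Rarres2, the chemerin precursor, was at 398 CPM against 35.8 CPM, and Tmem212 at 270 CPM against 12.6 CPM. Foxj1, the master factor of motile cilia, was at 87.9 CPM against 9.70 CPM. Of astrocyte genes, Aqp4, the water channel, was at 341 CPM against 74.8 CPM, and Gfap and Vim, intermediate filaments, were at 228 CPM against 49.2 CPM and 253 CPM against 39.6 CPM. The glutamate transporters of astrocytes, Slc1a2 and Slc1a3, were lower, at 180 CPM against 864 CPM and 71.2 CPM against 216 CPM. The choroid plexus sum was 1009 CPM against 4666 CPM. The median habenula spot, however, held 7.22 choroid plexus counts per 10000 UMIs, against 3.60 in the median other spot. How much of each gene group above came from neighbouring ependyma was not tested. Microglial and endothelial genes were within 2-fold, all 10 and all 8 of those listed.

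Against 100 thalamus spots of the same section, 277 of 1752 genes were past 2-fold higher in the habenula spots (15.8%) and 339 of 1709 past 2-fold lower (19.8%). Gm5741 was at 1770 CPM against 0.583 CPM and Gng8 at 636 CPM against 2.33 CPM. Synpr, a synaptic vesicle protein, was at 730 CPM in the habenula spots, against 12.2 CPM in the thalamus spots, and Kcnip1 was at 421 CPM against 1.75 CPM. Outside the genes that chose the thalamus spots, Rgs7bp, a partner of RGS proteins, was at 12.6 CPM against 444 CPM, Gabra4, which encodes a GABA-A receptor alpha subunit, at 16.7 CPM against 495 CPM, and Ntng1, netrin G1, at 16.7 CPM against 450 CPM. Pcp4, a calmodulin regulator, was high in both, at 4066 CPM against 8088 CPM, and was at 1424 CPM in the other spots of the section as a whole.

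The 20 habenula spots varied among themselves. Slc5a7 and Tac1, one a cholinergic gene and the other a tachykinin gene, ran in opposite directions across spots, with Spearman's rho of -0.56 over 20 spots and -0.76 over the 14 with at least 15000 UMIs. Tac1 ran with Calb2 (0.75 over 20 spots, 0.85 over 14) and against Gpr151 (-0.65 and -0.69). Slc5a7 ran with Gpr151 (0.49 and 0.67) and against Calb2 (-0.60 and -0.64). Tac2 ran with Gng8 (0.73 and 0.82), but showed little relation to Nwd2 (0.21 and 0.18). Gm5741 and Chrna3 had a rho of 0.46 over 20 spots and 0.84 over the 14. Rarres2 and Tmem212 ran together (0.59 and 0.85), and Gm5741 ran against Rarres2 (-0.50 and -0.60). These are descriptions of counts per 10000 UMIs in spots of 1 section, which share a library and, where they touch, cells. They were chosen after their values were seen, and no test goes with them.

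Tac2, Nwd2, Gpr151 and Chrna3 also chose and ranked these spots. The spot at rank 14, the deepest with 53358 UMIs, had 57 counts of Tac1, 83 of Calb2 and 160 of Tac2, and 0 of Slc5a7 and of Gpr151. The spot at rank 1, with 46741 UMIs, had 22 counts of Slc5a7 and 15 of Gpr151, with 107 of Tac2, 3 of Tac1 and 2 of Calb2. The spot at rank 4 had both, with 15 counts of Slc5a7, 34 of Calb2 and 93 of Tac2 among 50412 UMIs. These 3 spots were picked after their values were seen, and no division of the spots was made from them.

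**Figure D4:**
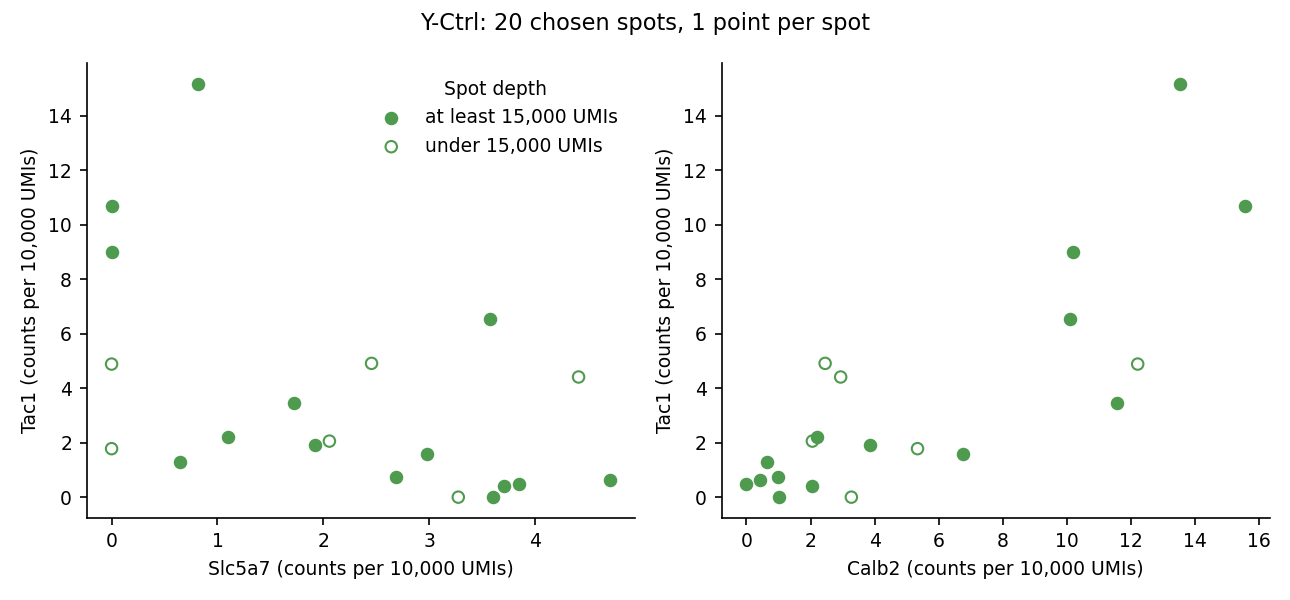
Counts per 10,000 UMIs of Tac1 against Slc5a7 (left) and against Calb2 (right) in the 20 habenula spots of Y-Ctrl, with 1 point per spot and filled points for the 14 spots with at least 15,000 UMIs. Spearman's rho over the 20 spots is -0.56 on the left and 0.75 on the right.

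Vip had the highest ratio in the chosen spots of both O-Ex and O-Ctrl. Of 1620 genes tested 12 were past 2-fold higher in the O-Ex spots than in the other spots of that section (0.741%), and of 1556 genes 7 were past 2-fold lower (0.450%). In O-Ctrl 14 of 1591 were past 2-fold higher (0.880%) and 26 of 1522 past 2-fold lower (1.71%). Of the higher genes 7 were shared, 58.3% of the O-Ex genes and 50% of the O-Ctrl genes, namely Vip, Npy, Cnr1, Cck, Cxcl14, Fxyd6 and Trp53i11. Vip, Npy and Cck are neuropeptide genes found in cortical interneurons, and Cnr1 encodes the cannabinoid receptor CB1. Other interneuron genes went the other way. Pvalb was past 2-fold lower in the chosen spots of both sections, and Sst in those of O-Ctrl. With the 176 of the Y-Ctrl habenula spots the O-Ex list shared 2 genes, 16.7% of it, and the O-Ctrl list 1 gene, 7.14% of it, where 10.0% of all genes tested in Y-Ctrl were past 2-fold higher.

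Vip was at 1021 CPM in the O-Ex spots, against 34.5 CPM in its other spots, and at 1765 CPM in the O-Ctrl spots, against 37.9 CPM, but had 0 counts in the Y-Ctrl habenula spots. Npy was at 543 CPM against 196 CPM in O-Ex and at 990 CPM against 269 CPM in O-Ctrl. Cnr1 was at 385 CPM against 72.7 CPM in O-Ex and at 482 CPM against 77.0 CPM in O-Ctrl. Crh, corticotropin-releasing hormone, was at 86.0 CPM against 4.50 CPM in O-Ex and at 84.7 CPM against 4.81 CPM in O-Ctrl, and Htr3a, the serotonin-gated channel, at 48.1 CPM against 3.49 CPM and at 111 CPM against 4.72 CPM. Tac2 itself was at 454 CPM in O-Ex and 658 CPM in O-Ctrl, in 19 of 20 spots of each.

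These counts came from part of the chosen spots. In O-Ex 10 of 20 spots had 0 counts of Vip, and 5 spots held 284 of its 297 counts (95.6%). Crh was in 4 of the O-Ex spots, Htr3a in 7 and Npy in 14, with 66.5% of the Npy counts in 2 spots. In O-Ctrl 8 of 20 spots had 0 counts of Vip, and 5 spots held 526 of its 729 counts (72.2%). Crh was in 9 of the O-Ctrl spots, Htr3a in 10 and Npy in 16. Gad1, an enzyme of GABA synthesis, was in 17 of 20 spots of O-Ex and 18 of 20 of O-Ctrl. Of 6 genes of GABAergic neurons, 0 were past 2-fold higher in O-Ex and 1 in O-Ctrl. Their median log2 ratios over the other spots were 0.60 and 0.14. Among all genes with a count, 0.0986% and 0.182% were past 2-fold higher. The sums above thus stand for mixed sets of spots, and no division of the spots was made from these counts.

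Habenula genes were near their background in these spots. Gm5741 had 0 counts in both sections' spots, Gng8 had 1 count in O-Ex and 0 in O-Ctrl, and Slc5a7 had 0 in O-Ex and 1 in O-Ctrl. Of the 17 medial habenula genes listed, 0 were past 2-fold higher in either section and 1, Slc17a6, was past 2-fold lower in O-Ctrl (without a minimum level, 0.0986% of all genes with a count were past 2-fold higher in O-Ex and 0.182% in O-Ctrl, and 0.304% past 2-fold lower in O-Ctrl), with median log2 ratios of -0.09 in O-Ex and -0.08 in O-Ctrl. Of the 8 ependymal genes 0 were past 2-fold in either section. Single spots held much of some genes' counts. In O-Ex 1 spot held 90.7% of the Serpina3n counts, and another held 66.1% of the Hbb-bs counts.

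Chrnb4 in O-Ctrl came from 2 spots, at ranks 2 and 5, with 4 and 14 counts. The same spots had 23 and 36 counts of Pde6g, a phosphodiesterase subunit of photoreceptors, 12 and 33 of Sag, retinal arrestin, and 2 and 15 of Tph1, the tryptophan hydroxylase of the pineal gland. Pde6g had 59 counts in the chosen spots in all, so these 2 spots held every one. Neither held Pou4f1, Gpr151 or Nwd2. The spot at rank 5 also had 1052 counts of Ttr, the transthyretin of choroid plexus, which was 94.7% of the Ttr counts of the 20 spots. These spots scored on Chrnb4 and Chrna3 alone or with 1 count of Tac2.

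The score was also applied in Y-Ctrl outside the 50 spots with at least 3 genes. The 20 spots so chosen had Tac2 at 954 CPM, Vip at 1130 CPM, Npy at 510 CPM and Crh at 195 CPM, with 0 counts of Gpr151 and 1 of Pou4f1. They had Gm5741 at 126 CPM and Gng8 at 26.8 CPM, far under the 1770 and 636 CPM of the habenula spots. The set was mixed. All 295 Vip counts lay in 5 of its spots, 261 of them in 2, at ranks 45 and 55 of the section, and 86 of the 133 Npy counts lay in the spot at rank 37. The 33 Gm5741 counts lay in 6 spots, and Tac2 was in 19 of 20.

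**Figure D5:**
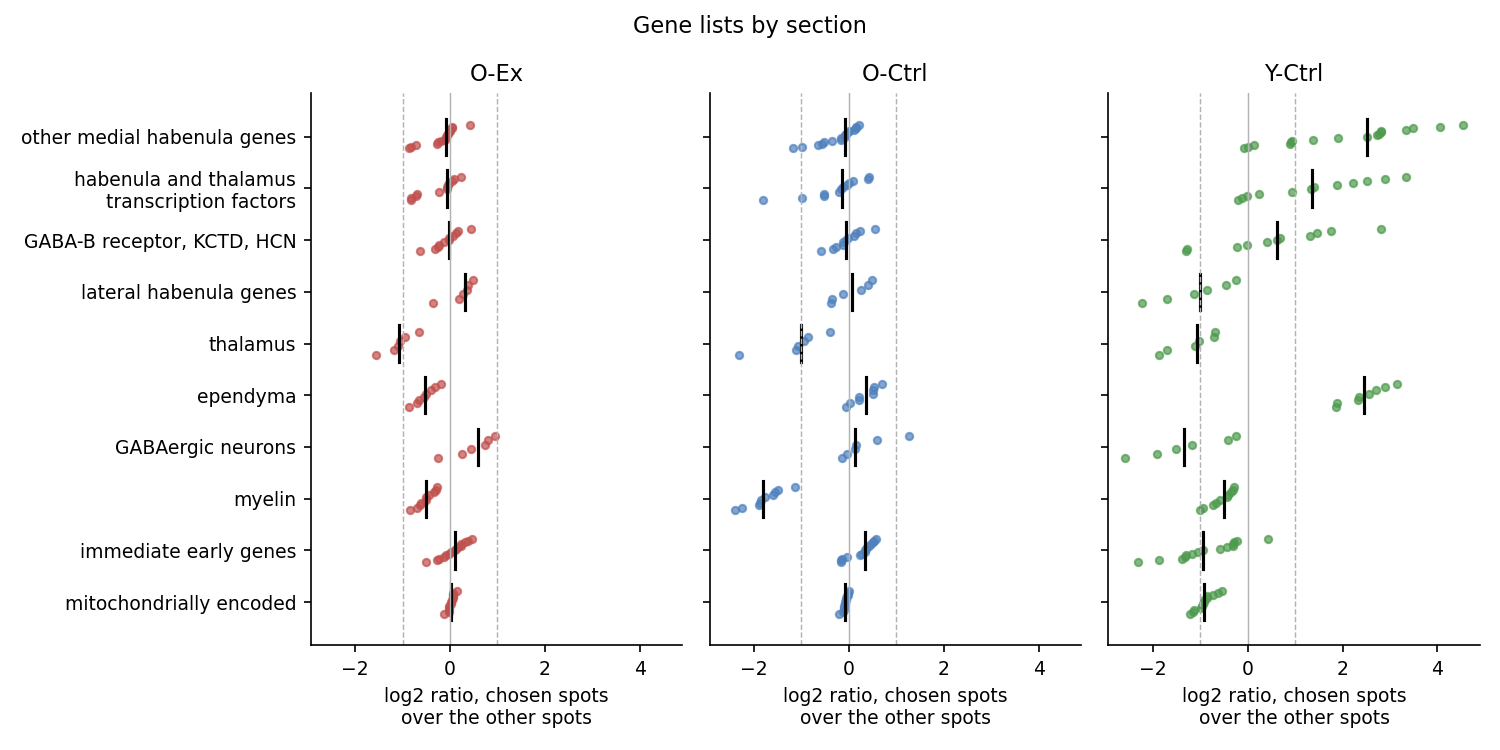
Log2 ratio (CPM plus 20) of the chosen spots over the other spots for each gene of 10 lists (1 point per gene, black bar at the median), in O-Ex, O-Ctrl and Y-Ctrl, with dashed lines at 2-fold. The medians of the medial habenula list are -0.09, -0.08 and 2.52 and those of the ependymal list -0.52, 0.37 and 2.46.

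Counts over the other lists were taken without a minimum level. Of all genes with a count, 0.0986% in O-Ex, 0.182% in O-Ctrl and 2.13% in Y-Ctrl were past 2-fold higher, and 0.276%, 0.304% and 1.86% past 2-fold lower in the same order. By summed counts the thalamus genes were low in the chosen spots of every section. Of 6 genes 4 were past 2-fold lower in O-Ex, 3 in O-Ctrl and 4 in Y-Ctrl. The median spot gave a different reading in Y-Ctrl. There the list summed to 1.44 counts per 10000 UMIs in the median chosen spot and 1.13 in the median other spot. These medians were 0.482 and 0.918 in O-Ex, and 0.471 and 0.829 in O-Ctrl. All 10 myelin genes were past 2-fold lower in O-Ctrl, with a median log2 ratio of -1.81, against 0 in O-Ex and 1 in Y-Ctrl, where the medians were -0.51 in both. By summed counts, choroid plexus genes were past 2-fold lower in 7 of 10 in O-Ex, 1 in O-Ctrl and 3 in Y-Ctrl. The median chosen spot was not lower for this list. It held 9.08 counts per 10000 UMIs in O-Ex, 3.36 in O-Ctrl and 7.22 in Y-Ctrl. The median other spot held 7.16, 3.24 and 3.60 in the same order. Otx2, a factor of choroid plexus and dorsal brain, was past 2-fold higher in Y-Ctrl, at 50.2 CPM against 5.86 CPM. Of 5 hippocampal CA genes, Fibcd1 was at 96.3 CPM against 11.0 CPM in Y-Ctrl, while Neurod6 and Spink8 had 0 counts there against 72.1 and 43.0 CPM in the other spots. Of 7 dentate genes 1 was past 2-fold lower in O-Ex, 0 in O-Ctrl and 1 in Y-Ctrl. Of 13 hypothalamus and amygdala genes Crh and Npy were past 2-fold higher in O-Ex and O-Ctrl, while Sst was past 2-fold lower in O-Ctrl. In Y-Ctrl 4 were past 2-fold lower, namely Pmch, Hcrt, Npy and Sst. The 1 higher there was Cartpt, at 98.4 CPM against 27.7 CPM, with 61.7% of its counts from 1 spot. Of 6 pineal genes Tph1 alone was past 2-fold higher, in O-Ctrl, and Chgb alone past 2-fold lower, in Y-Ctrl. Meningeal and interferon or MHC genes were within 2-fold in all 3 sections, all 8 and all 13 of those listed. Of 5 erythrocyte genes Hbb-bt alone was past 2-fold higher, in O-Ex. Of 9 complement and reactive glia genes Serpina3n was past 2-fold higher in O-Ex and Gfap and Vim in Y-Ctrl. C4b was past 2-fold lower in O-Ctrl.

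Across the 3 sections, 1 of 1646 genes was past 2-fold higher in the chosen spots in every section (0.0608%) and 2 of 1536 past 2-fold lower (0.130%). The higher gene was Trp53i11, at 127 CPM in O-Ex, 114 CPM in O-Ctrl and 109 CPM in Y-Ctrl, against 47.5, 41.4 and 37.2 CPM in the other spots of the same sections. The lower genes were Prkcd, a kinase of thalamic relay neurons, at 24.1, 7.26 and 37.7 CPM against 109, 115 and 190 CPM, and Pvalb, the parvalbumin gene of fast-spiking interneurons, at 107, 114 and 16.7 CPM against 247, 311 and 258 CPM. Next in order came Gucy1a1, a subunit of the nitric oxide receptor, at 86.0, 102 and 266 CPM against 36.1, 43.9 and 45.2 CPM. Synpr was at 230, 184 and 730 CPM against 99.5, 96.8 and 93.4 CPM, and Kcnip1 at 92.8, 53.3 and 421 CPM against 20.7, 23.2 and 21.0 CPM. Of the 15 genes with the highest smallest ratio, 14 beside Trp53i11 were under 2-fold in at least 1 section. The low end also held Ttr, Enpp2, Mbp, Bcas1, Ppp1r14a and Rap1gds1, of which Ttr and Enpp2 are choroid plexus genes and Mbp and Bcas1 myelin genes.

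The comparison of O-Ex with O-Ctrl is between chosen spots that did not carry the habenula genes and says nothing of the habenula. Of 1600 genes 19 were past 2-fold higher in the O-Ex spots (1.19%) and 3 past 2-fold lower (0.188%), with a median log2 ratio of 0.00 over all of them. Trf, the iron carrier transferrin, was at 485 CPM in O-Ex and 136 CPM in O-Ctrl, while its log2 ratio between the other spots of these sections was 0.05. Cldn11 and Mal, both of myelin, were at 162 and 169 CPM in O-Ex and at 41.2 and 46.0 CPM in O-Ctrl. Of 10 myelin genes 6 were past 2-fold higher. List counts between these sections took no minimum level, and the share over all genes without one was not taken. Haemoglobin genes followed, with Hbb-bt, Hba-a2 and Hbb-bs at 340, 739 and 1916 CPM in O-Ex and 84.7, 259 and 792 CPM in O-Ctrl. These were set by few spots: with the 10 highest spots of each section in place of 20, the log2 ratios of Hbb-bt, Hba-a2 and Hbb-bs were -0.45, -0.88 and -1.25. Eef1a2, an elongation factor, was at 334 CPM in O-Ex and 126 CPM in O-Ctrl, with a log2 ratio of 0.85 between the other spots of these sections.

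On the lower side Ttr was at 629 CPM in O-Ex and 2689 CPM in O-Ctrl, and without the 1 spot richest in Ttr of each section the log2 ratio turned to 1.47. Snrpg, a small nuclear ribonucleoprotein, was at 89.4 CPM in O-Ex and 208 CPM in O-Ctrl, and Mrpl51, a mitochondrial ribosomal protein, at 61.9 CPM in O-Ex and 148 CPM in O-Ctrl, on 26 and 18 counts in O-Ex. Without the 2 O-Ctrl spots that held Pde6g and Sag, 0 genes were past 2-fold lower in O-Ex, and 19 stayed the count past 2-fold higher. The next 5 genes, Auh, Shisa4, Eif1ax, Strn4 and Npy, were within 2-fold, with log2 ratios between -0.93 and -0.84. Counted without a minimum level, 0 of the 17 medial habenula genes listed were past 2-fold. Of the 12 transcription factors Tcf7l2 alone was, at 37.8 CPM in O-Ex and 7.26 CPM in O-Ctrl on 11 and 3 counts.

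The comparison of O-Ctrl with Y-Ctrl sets spots without the habenula genes against spots with them. Of 1640 genes 131 were past 2-fold higher in the O-Ctrl spots (7.99%) and 117 past 2-fold lower (7.13%), with a median log2 ratio of -0.14. The highest were Vip at 1765 CPM in O-Ctrl and 0 of 477839 UMIs in Y-Ctrl, Npy at 990 CPM in O-Ctrl and 6.28 CPM in Y-Ctrl, and Camk2a at 375 CPM in O-Ctrl and 4.19 CPM in Y-Ctrl. Lamp5, Cxcl14, Mef2c, Hpca and Ddn followed, at 261 to 467 CPM in O-Ctrl and 2.09 to 18.8 CPM in Y-Ctrl. The lowest were Gm5741 at 0 of 413094 UMIs in O-Ctrl and 1770 CPM in Y-Ctrl, Gng8 at 0 counts in O-Ctrl and 636 CPM in Y-Ctrl, and Necab2 at 26.6 CPM in O-Ctrl and 1348 CPM in Y-Ctrl. Lrrc55, Zic1, Syt9, Gfra1 and Calb2 were at 2.42 to 31.5 CPM in O-Ctrl and 393 to 714 CPM in Y-Ctrl. In the other spots of the 2 sections all 16 of these genes had log2 ratios between -0.46 and 0.37. With spots holding 3 or more choosing genes left out of both sections before the choice, 12 genes were past 2-fold higher and 12 past 2-fold lower.

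Whole-section levels of genes outside the score were also read with and without the spots that held 3 or more choosing genes, 2 in O-Ctrl and 50 in Y-Ctrl. Over all spots with at least 3000 UMIs, on CPM plus 5, the log2 ratio of O-Ctrl over Y-Ctrl was -2.29 for Gm5741, and -0.47 without those spots. For Gng8 it was -0.79 and then -0.05, and for Slc5a7 -0.45 and then -0.02. For Zic1 it was -0.73 and then -0.55, and for Tac1 0.39 and then 0.50. These are descriptions of 1 section each, and the spots left out were chosen on counts of the same sections.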

How the data were processed

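Raw UMI counts per gene and barcode were deposited for 31053 genes in 3 Visium sections, 1 per group. Per the file headers they come from Space Ranger 2.0.0; the submitters' processing notes name mm10 as the build. Annotation release, strand use in counting and any tissue mask are not given in the labels or headers, and spot positions were not used. Barcodes with at least 3000 UMIs were kept, and the 20 of highest score taken in each section. Counts were summed over spots, scaled to CPM and compared as log2 ratios of CPM plus 20. Genes entered with at least 100 CPM in the chosen spots (higher) or in the other spots (lower), averaged over the sections where several are counted, or on average over both sections compared; the 6 choosing genes stayed out of these counts. A gene was called past 2-fold. Thinning drew 3000 UMIs per spot. No doublet caller was run. Python 3.11.15, numpy 2.4.6, scipy 1.17.1, pandas 2.3.3 and matplotlib 3.10.9 were used, and the steps were tested on simulated data.

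The spots, the 28 gene lists and the comparisons were chosen with earlier results of these data known. The rule for named genes took every member of the habenula lists, the 15 highest and 8 lowest shared by the sections, the 8 highest and 8 lowest between sections with a UMI in at least 10 of 20 spots and outside sex-linked genes, the leading members of other lists and the most abundant gene; some of these are given by counts. The 30 highest and 15 lowest genes of Y-Ctrl alone, the thalamus comparison, the leading genes of the O-Ex and O-Ctrl spots, the photoreceptor genes, the spot correlations and the single spots were added after their values were seen. Gene positions are from GENCODE vM21 (GRCm38). All 234 list genes were found, 1 of them under a symbol that more than 1 identifier shares, whose value is not printed. Some further list members are not reported here. Alternatives changed the choice of spots, the minimum level, the pseudocount and the scaling, or left out single spots.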

Additional observations from a re-analysis of the deposited data

Results flagged for a closer look

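Tcf7l2, a Wnt pathway transcription factor of thalamus and medial habenula, moved in opposite directions between sections. Its log2 ratio of chosen spots over the other spots was -0.82 in O-Ex, -1.81 in O-Ctrl and 1.33 in Y-Ctrl. It was at 37.8, 7.26 and 318 CPM in the chosen spots and at 81.9, 75.3 and 115 CPM in the other spots of O-Ex, O-Ctrl and Y-Ctrl. The counts were 11, 3 and 152, and 1 spot held 72.7% of those in O-Ex. The difference between sections was not tested, since each group is 1 section, and the chosen spots of O-Ex and O-Ctrl did not carry the habenula genes.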

How the results depend on the processing

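No paired analysis was possible because each group is 1 section, and for the same reason no replicate could be left out. In Y-Ctrl the counts of genes past 2-fold against the other spots, 176 higher and 168 lower, stayed within 1.5 times under 12 of 15 alternatives each; they were 390 and 351 at a minimum of 30 CPM and 47 and 40 at 300 CPM, 379 genes were higher with spots thinned to 3000 UMIs, and 254 were lower with scaling that left out mitochondrial and choosing genes. The alternatives for Y-Ctrl alone, the leaving out of spots with Pde6g and Sag and the spots outside those with 3 genes were chosen after seeing the data. Between O-Ctrl and Y-Ctrl, the 131 higher and 117 lower genes became 351 and 395 at 30 CPM, 28 and 26 at 300 CPM, 204 and 235 when thinned, and 12 and 12 outside spots with 3 genes, and 76 were higher with the score without Tac2. Between O-Ex and O-Ctrl, the 19 higher genes ranged from 7 to 81: 49 with 10 spots, 7 with 30 spots, 50 at 30 CPM, 7 at 300 CPM, 11 with a linear score, 8 at a minimum of 5000 UMIs, 11 with a pseudocount of 50 CPM and 81 when thinned. The 3 lower genes became 27 with 10 spots, 0 without the 2 O-Ctrl spots, 5 with equal weight per spot, 24 at 30 CPM, 1 at 300 CPM, 7 at a minimum of 1000 UMIs, 6 and 1 with pseudocounts of 5 and 50 CPM, 34 without Tac2 and 71 when thinned. In all 3 sections together, the 1 higher gene became 0 with 10 spots, 30 spots, equal weights, 300 CPM, a pseudocount of 50 CPM or thinning, 3 with a linear score or a pseudocount of 5 CPM, and 17 without Tac2; the 2 lower genes became 1 with equal weights, 1000 or 5000 UMIs or a pseudocount of 50 CPM, 4 at 30 CPM, 0 at 300 CPM and 5 when thinned. Of single genes past 2-fold, 7 values turned their sign, all between O-Ex and O-Ctrl: with 10 spots Hbb-bt -0.45, Hba-a2 -0.88 and Hbb-bs -1.25; Mal -0.0693 at a minimum of 5000 UMIs and -0.15 with a linear score; and Ttr 2.40 when thinned and 1.47 without its richest spots. Of 70 genes past 2-fold in Y-Ctrl, 881 of 910 values under the alternatives stayed past 2-fold. For 16 genes between O-Ctrl and Y-Ctrl, 207 of 208 values did. For 11 genes between O-Ex and O-Ctrl, only 97 of 143 values did. A lower minimum tests more genes, and thinning leaves 3000 UMIs per spot; the cause of the other changes was not tested. Depth limits genes under 10.3 CPM in O-Ex, 7.26 CPM in O-Ctrl and 6.28 CPM in Y-Ctrl, the level of 3 counts in the chosen spots.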
